A study of Arabidopsis thaliana with 72 samples.

Results

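The transcripts described here are 232 probe sets of the Arabidopsis ATH1 array whose signal was lower in the clock mutant toc1-1 than in untreated wild-type seedlings, out of 22746 probe sets that are not array controls. They were chosen by measured values. The mean of log2(signal + 16) over 12 time points had to be at least 0.45 lower in toc1-1 in each of 2 replicate time courses. The 24 h cosine amplitude in untreated plants had to be under 0.6, the nicotinamide difference had to lie between -2 and 2, and the untreated mean signal had to reach 30. Of 396 probe sets lower in both courses, 342 met the amplitude limit, 311 also the nicotinamide limit and 240 also the signal limit. A further 8, for psaC, psbJ, EXLB1, AT5G06630, HRGP1, XTH19, EXPA18 and EXPA4, were set aside because plastid, root hair and cell wall loosening genes were not part of the selection. The same criteria with the sign turned, with the same kinds of genes set aside, gave 154 probe sets raised in toc1-1.

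TOC1 (At5g61380) encodes an evening-expressed repressor of the plant circadian clock. It represses the morning genes of the clock, and the toc1-1 allele makes the clock run fast. Many Arabidopsis transcripts follow the clock, including genes for photosynthesis, growth, cell wall metabolism and stress responses. Nicotinamide, a form of vitamin B3, makes the Arabidopsis clock run slow.

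The study measured RNA from 72 arrays, 24 in each of 3 conditions. The untreated and the nicotinamide-treated plants were wild type of the C24 accession. The toc1-1 plants carried a chemically induced (EMS) mutation in At5g61380, and their accession is not in the labels used here. All were whole aerial parts of seedlings grown for 11 days in 12 h of light and 12 h of darkness, then moved to continuous light and harvested every 4 h from 49 to 93 h. Each condition had 2 time courses, and the labels do not say whether they came from independent sowings, so p-values measure the spread between these arrays. More seeds were sown for toc1-1 (150 to 200) than for C24 (70 to 100), and the first untreated course was labelled stage 1.03 where all others were 1.04. The nicotinamide dose is not in the labels used here. The level difference from untreated, the untreated amplitude and signal, and the nicotinamide difference served in the selection, so they are given as descriptions without a test. Signals of different probe sets were not set against each other, because each probe set has its own response.

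Of the 232 probe sets, 104 match 1 gene in the annotation table, 2 match several and 126 have none listed there. The 104 genes lay on all 5 chromosomes, with 22, 20, 20, 15 and 26 of them on chromosomes 1 to 5 and 1 not placed. Only AT5G21100 and AT5G21105 were next to each other on a chromosome. Of the 232, 11 are of the probe set types that may read several similar transcripts.

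The period fitted to the clock-controlled genes GI and COR27 was 21.4 h in toc1-1, 23.9 h in untreated and 26.5 h in nicotinamide-treated plants, given without a test. Replicate arrays of the same condition and time correlated at 0.949 or higher over all probe sets, with a median of 0.985. The lowest value was 0.949 under nicotinamide, 0.975 in toc1-1 and 0.981 in untreated plants. The limma tests below used 1 estimate of the spread of each probe set for all 3 conditions, so nicotinamide arrays entered the spread of toc1-1 tests too. The median signal of an array was 35.2 ± 1.49 in untreated plants, 35.5 ± 0.989 in toc1-1 and 26.5 ± 3.38 under nicotinamide (SD, n = 24 arrays each). The log2 ratio of the 3′ to the 5′ actin probe set, a sign of RNA integrity, averaged 1.13 in untreated, 1.37 in toc1-1 and 1.19 in nicotinamide arrays, and its part in the results was not tested.

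Some arrays stood apart in markers of root hairs, cells that aerial tissue lacks. Of 15 root hair markers listed, 6 were named on the array (AT4G26010, AT5G17820, AT4G30170, AT3G01190, EXPA7 and EXPA18), and all 4 that passed the signal filter were lower in toc1-1 (limma, adjusted p of 2.1e-12 or less). Their summed signal had a median of 506 and a highest value of 1036 in untreated arrays. In toc1-1 the median was 67.3 and the highest value 436, and under nicotinamide these were 47.9 and 105. In untreated plants the sum also moved with time. It was 818 to 1036 at 57, 61, 81 and 85 h of both courses and 789 or lower at the other times. The first-course arrays of 93 h were the lowest in all 3 conditions, at 9.99 in untreated, 13.6 in toc1-1 and 7.25 in nicotinamide. Among untreated arrays that sum was far from the next lowest, 252. PYK10, a root-abundant beta-glucosidase, was at 1328 in that untreated array against at least 2775 in the others, while its mean level did not pass the test between toc1-1 and untreated (log2 difference -0.00071, limma adjusted p = 0.995). Under nicotinamide PYK10 was lower (-0.70, limma adjusted p = 2.53e-11).

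That untreated array bears directly on the 232 transcripts. In it, 88 of them (37.9%) had their lowest untreated value, against 9.15% of the other probe sets that met the remaining criteria. Of the 232, 54 (23.3%) lay 1 or more log2 units under their untreated mean there, against 1.04% of those others. It held 68 transcripts below their own toc1-1 median, 65 of them at their lowest untreated value, and 164 not below it, of which 23 were at their lowest untreated value. In the untreated arrays next lowest in root hair markers, 8 and 4 of the 232 lay below that median. Counts below the toc1-1 median were not made over other probe sets, so they describe the 232 only. The part of root tissue in the lower level of these transcripts in toc1-1 was not tested. In bulk tissue, fewer cells of a type and less RNA per cell cannot be told apart. With the array left out, 263 probe sets met the rule, 221 of them among the 232.

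**Figure D1:**
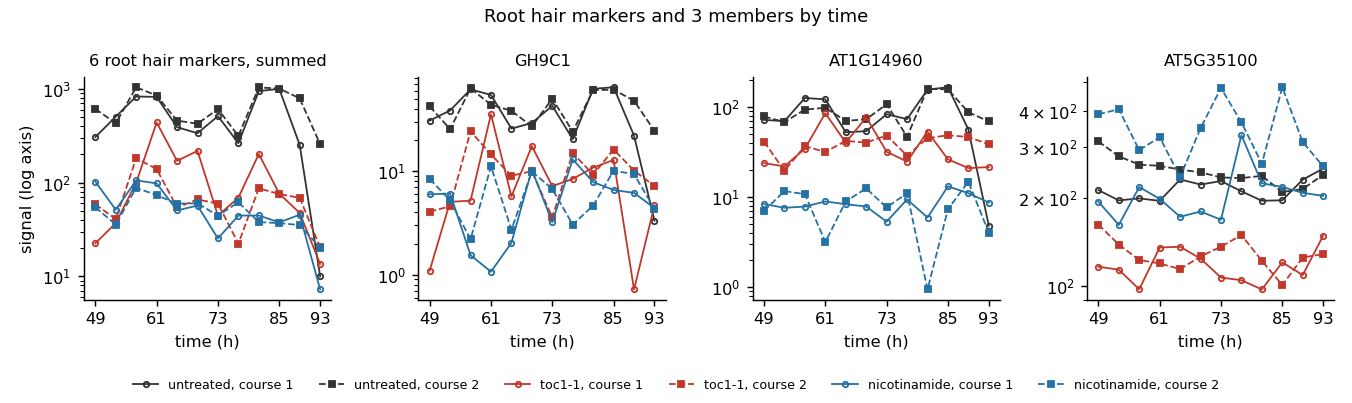
Signal on a log axis against hours, for the sum of 6 root hair markers and for GH9C1, AT1G14960 and AT5G35100. Each line is 1 time course (open circles and solid lines the first, squares and dashes the second). At 93 h of the first course the untreated marker sum, GH9C1 and AT1G14960 fall to 9.99, 3.33 and 4.80, while AT5G35100 stays at 253.

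Among gene-matched transcripts, the largest decreases were those of genes given only by locus in the annotation used and of the enzyme gene GH9C1. Several of these had low signals in toc1-1, with medians of 3.96 for AT5G26260 and 8.75 for GH9C1, which limits the sizes given. The toc1-1 minus untreated difference of the 232 ran from -1.64 to -0.46 with a median of -0.63, against 0.02 over the 11477 probe sets that met the other criteria. On the signal scale, the median ratio of the untreated to the toc1-1 mean was 1.72. Of the 232, 20 had a difference of -1 or lower, 59 lay between -1 and -0.7, and 153 above -0.7. The mean was lower in toc1-1 at all 12 times for 195, at 11 times for 34 and at 10 times for 3. The rule used the mean over these times, so nothing is read from these counts. At single times, the median difference ran from -0.80 at 57 h to -0.46 at 93 h, where the untreated array that stood apart enters. The next weakest was -0.57 at 89 h. The largest after 57 h were -0.79 at 61 h, -0.77 at 85 h and -0.72 at 81 h. At these 4 times the untreated root hair marker sum was also highest, and a link was not tested. Among the probe sets with no listed gene, the lowest differences were those of 248252_at (-1.64), 263552_x_at (-1.51), 247965_at (-1.45), 259839_at (-1.35) and 266591_at (-1.31).

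GH9C1 (glycosyl hydrolase 9C1) belongs to a family of endoglucanases that act on cellulose in the cell wall. Its signal in untreated plants ran from 3.33 through a median of 40.7 to 65.2. In toc1-1 the lowest, median and highest values were 0.720, 8.75 and 35.6. The groups overlapped, since the untreated array of 93 h, at 3.33, lay among the toc1-1 arrays, and the differences were -1.05 in the first and -1.12 in the second course. Without that array the lowest untreated value was 20.5. Under nicotinamide GH9C1 ran from 1.07 through 6.04 to 13.1, a difference of -1.29. GH9C1 did not pass the signal filter of the tests, so these values only describe a low signal.

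UGT71C1 is a UDP-glucosyltransferase, an enzyme that attaches glucose to small molecules. It ran from 8.40 through 33.7 to 60.4 in untreated plants and from 0.890 through 10.0 to 21.5 in toc1-1. Under nicotinamide it was lower still, from 0.221 through 0.606 to 3.78. The difference was -0.96 in toc1-1 and -1.56 under nicotinamide. UGT71C1 did not pass the signal filter of the tests either, and its signals in both of these conditions were low. UGT72E2, which glucosylates monolignols, the building blocks of lignin, ran from 28.9 through 106 to 207 in untreated plants and from 28.0 through 68.7 to 130 in toc1-1, with a nicotinamide median of 30.5. The 3 groups overlapped for UGT72E2, and its differences were -0.65 and -1.47.

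AT5G26260 ran from 2.21 through 34.5 to 102 in untreated plants and from 0.484 through 3.96 to 8.47 in toc1-1, a difference of -1.41. AT2G25980 had medians of 51.8 and 13.9 (-1.21), and AT2G16005 of 30.6 and 5.45 (-1.16). In nicotinamide arrays the medians of the same genes were 3.79, 8.62 and 6.79. All 3 loci were lower in toc1-1 at all 12 times, and the toc1-1 and nicotinamide medians of each were both under the untreated median.

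Of the 20 gene-matched transcripts with the largest decrease, 13 lay below their toc1-1 median in the untreated array of 93 h. These were AT5G26260, AT2G25980, AT2G16005, GH9C1, AT2G47540, UGT71C1, AT1G23720, AT1G14960, AT5G01870, AT1G64590, AT2G18980, AT3G29410 and AT2G45750. The other 7 were AT1G12030, AT2G14900, AT1G64360, AT5G09570, AT5G35100, AT4G35320 and AT3G05400. In that array AT1G12030 stood at 80.4 (untreated median 55.0), AT1G64360 at 119 (48.6) and AT5G09570 at 314 (85.5). The latter were the highest untreated values of AT1G64360 and AT5G09570, so the array that held the lowest value of GH9C1 held the highest of these genes. Over all 232, the 68 transcripts below their toc1-1 median in that array had a median untreated signal of 47.9 and a median toc1-1 difference of -0.70, or -0.75 without the array. The 164 not below it had 162 and -0.61, or -0.62 without it.

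Several transcripts were separated between the genotypes on every array. AT5G35100 ran from 196 through 232 to 314 in untreated plants and from 97.5 through 123 to 163 in toc1-1, with no overlap. AT5G16110 ran from 180 through 235 to 325 against 124 through 152 to 178. In all, 15 of the 232 had every toc1-1 array below every untreated array, where 0.0835% of all probe sets did (19 probe sets); the rule used this contrast, so nothing is read from the count. With the untreated array of 93 h left out, 23 of the 232 and 0.136% of all were so separated. The gene-matched ones among the 15 were AT5G35100, AT5G16110, AT1G16860, AT5G10960, AT4G29020, AT4G38250 and AT2G25520.

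**Figure D2:**
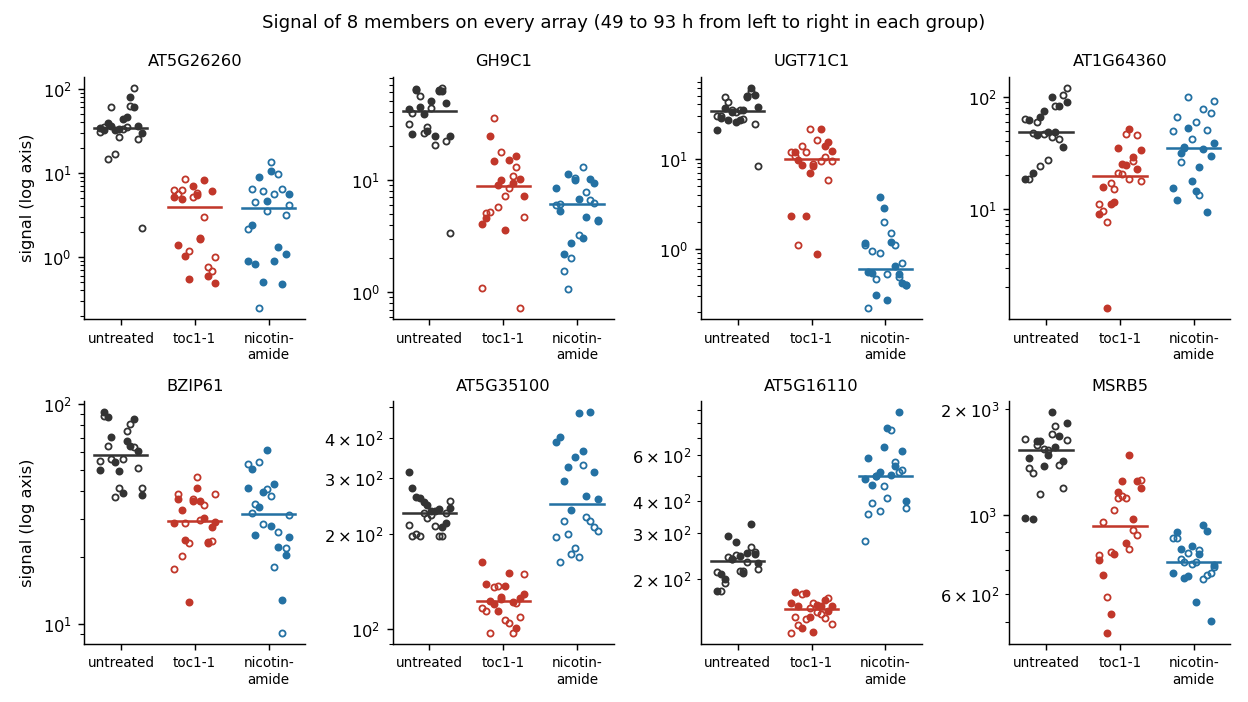
Signal on a log axis of 8 transcripts on every array, with times from 49 to 93 h running left to right within each condition. Open and filled points are the first and second course, and bars are medians of 24 arrays. AT5G35100 and AT5G16110 are lower on every toc1-1 array than on any untreated array, and AT5G16110 has nicotinamide values of 280 to 877.

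Genes of regulation and signalling were among the 232. BZIP61, a bZIP transcription factor, ran from 37.8 through 58.6 to 91.2 in untreated plants and from 12.5 through 29.2 to 46.3 in toc1-1, a difference of -0.74. HAT2, a homeodomain-leucine zipper factor induced by auxin, ran from 38.7 through 65.9 to 92.5 and from 17.8 through 38.2 to 52.9 (-0.64). TCP15, a TCP factor that acts in leaf and internode growth, ran from 58.1 through 84.8 to 118 and from 26.8 through 53.6 to 67.9 (-0.60). All 3 factors overlapped between the groups, with medians in toc1-1 under the lowest untreated value for each. ATMPK8, a mitogen-activated protein kinase, had medians of 113 and 69.9 (-0.56). RALFL22, a RALF-like signalling peptide, had 242 and 149 (-0.55). DI19, named for its induction by drought, had 730 and 565 (-0.49). MOB1-like, related to the MOB coactivators of cell-growth kinases, differed by -0.72.

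The 232 also held genes of the cell surface, transport and trafficking. COB (COBRA), an anchored cell surface protein needed for oriented cell expansion, ran from 452 through 621 to 874 in untreated plants and from 296 through 434 to 552 in toc1-1 (-0.55). AT2G26690 (NPF6.2), of the nitrate and peptide transporter family, had medians of 305 and 188 (-0.59). SFP1, of the sugar porter family, had 524 and 348 (-0.62). These 3 genes overlapped between the groups and were lower at all 12 times, except AT2G26690, which was lower at 11. PRA1.B4, a prenylated RAB acceptor of vesicle transport, had medians of 116 and 72.2 (-0.67). AT3G63460 (SEC31B), a coat protein of vesicles leaving the endoplasmic reticulum, had 80.8 and 50.9 (-0.53).

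Of the members with a symbol, several encode enzymes or protective proteins. MSRB5, a methionine sulfoxide reductase that repairs oxidised methionine, ran from 976 through 1536 to 1956 in untreated plants, from 465 through 933 to 1481 in toc1-1 and from 501 through 738 to 937 under nicotinamide. Its difference was -0.68 in toc1-1 and -0.97 under nicotinamide, where every array lay below every untreated array. GSTU26, a tau class glutathione transferase, had medians of 218 in untreated, 129 in toc1-1 and 237 in nicotinamide arrays (-0.65 and 0.08). FaTA, a thioesterase that releases fatty acids in the plastid, had medians of 40.6 and 20.2 (-0.61). HEME2, a uroporphyrinogen decarboxylase of heme and chlorophyll synthesis, had 556 and 392 (-0.49). LCR68 (PDF2.3), a plant defensin, had 1247 and 876 (-0.49), and DRT100, named for DNA damage repair and toleration, had 639 and 399 (-0.59). AT2G46140 (LEA27), a late embryogenesis abundant protein, differed by -0.69.

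The transcripts nearest the limit of the rule were close to those just outside it. In the weaker course, AT4G29690 was at -0.46, AT5G21105 at -0.46 and AT2G25520 at -0.45, while AT5G11000 at -0.45, AT5G11230 at -0.45 and AT4G23820 at -0.44 fell just outside.

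Under nicotinamide the same transcripts were mostly lower, with exceptions in both directions. The nicotinamide and toc1-1 comparisons share the untreated arrays, so their values are given side by side only. The nicotinamide difference of the 232 had a median of -0.65 and ran from -1.998 to 1.95, bounds set by the rule, against a median of -0.14 over the 11477. It was below 0 for 179 (77.2%), against 60.0% of the other probe sets that met the remaining criteria, and lay at -1 or lower for 77, between -1 and -0.5 for 52, between -0.5 and 0.5 for 91, between 0.5 and 1 for 6 and above 1 for 6. Of the 232, 110 had a lower mean under nicotinamide than in toc1-1. The nicotinamide minus toc1-1 difference had a median of 0.05, against -0.15 over the 11477. The rule selected a low mean in toc1-1, so nothing is read from that count. Every nicotinamide array was below every untreated array for 28 of the 232, where 4.02% of all probe sets were, and above for 2, where 1.75% were. The rule used this contrast, so nothing is read from these counts.

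Among gene-matched transcripts the lowest nicotinamide values were those of AT1G14960, AT1G12030, AT4G33550, AT5G20790 and AT5G21100. AT1G14960 ran from 4.80 through 75.8 to 166 in untreated plants, from 19.5 through 37.6 to 85.3 in toc1-1 and from 0.939 through 8.32 to 14.8 under nicotinamide. Its difference was -0.88 in toc1-1 and -1.998 under nicotinamide, at the limit of the rule. AT1G12030 had medians of 55.0, 20.5 and 1.42 in the same order (-0.94 and -1.89). Every nicotinamide array of AT1G12030 was below every untreated array, whereas for AT1G14960 the untreated array of 93 h lay within the nicotinamide range.

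Other transcripts that were lower in toc1-1 were higher under nicotinamide. AT5G16110 had medians of 235 in untreated, 152 in toc1-1 and 500 in nicotinamide arrays, with differences of -0.58 and 1.06. HAT2 had 65.9, 38.2 and 115 (-0.64 and 0.66). AT5G60680 had 225, 128 and 516 (-0.56 and 1.17). The neighbouring genes AT5G21100 and AT5G21105 differed in sign under nicotinamide, with medians of 85.4, 56.0 and 13.2 for AT5G21100 (-0.57 and -1.83) and of 318, 209 and 773 for AT5G21105 (-0.55 and 1.27). The nicotinamide arrays of AT5G21105, from 460 to 1243, lay above all its untreated arrays, from 193 to 405.

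**Figure D3:**
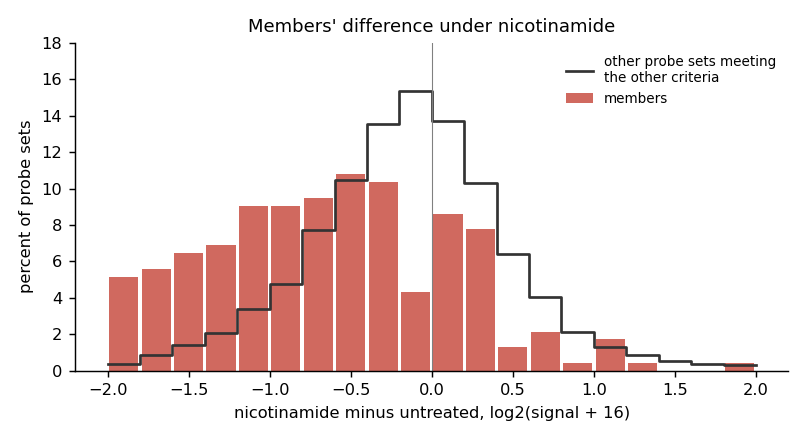
Nicotinamide minus untreated difference, log2(signal + 16), as percent of the 232 transcripts (bars) and of the other probe sets that met the remaining criteria (line). The median is -0.65 for the transcripts, and the rule confined both to -2 to 2.

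Rhythm within toc1-1 was not used in the selection and was tested with a 24 h cosine in limma. Of 212 transcripts that passed the signal filter, 34 (16%) were rhythmic in toc1-1 at an adjusted p under 0.05, where 8.54% of all 13647 tested probe sets were. The other tested probe sets that met the remaining criteria gave 6.21%. All 232 had been limited to a low amplitude in untreated plants, yet their untreated amplitude had a median of 0.25, against 0.11 over the 11477. Peaks of the 34 fell at 0 to 6 h for 10, at 6 to 12 h for 0, at 12 to 18 h for 9 and at 18 to 24 h for 15, counted in hours of continuous light modulo 24. Amplitudes, the distance from mean to peak on the log2 scale, ran from 0.18 to 0.73 with a median of 0.32. Of the 34, 30 were among the 160 tested transcripts not below their toc1-1 median in the untreated array of 93 h, and 4 among the 52 tested transcripts below it.

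AT2G26690 had the smallest adjusted p (limma, amplitude 0.40, SE 0.05, adjusted p = 3.66e-06). In toc1-1 its mean over both courses fell from 282 at 49 h to 150 at 61 h and from 252 at 73 h to 135 at 85 h. In untreated plants it fell from 419 at 49 h to 201 at 65 h and from 435 at 77 h to 220 at 93 h. The low point thus came at an earlier sampling time in toc1-1 in each cycle, and the fitted peak was at 0.396 h in toc1-1 and 4.19 h in untreated plants.

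AT5G20790 had the largest amplitude among the gene-matched transcripts (0.73, SE 0.12, limma adjusted p = 5.58e-05). Its mean in toc1-1 rose from 43.7 at 57 h to 228 at 69 h and in untreated plants from 70.2 to 357 at the same times. In the second cycle the range was narrower, from 110 to 270 in toc1-1 and from 230 to 419 in untreated plants. AT1G75280 (0.43, SE 0.07, adjusted p = 1e-04) ran from 651 at 57 h to 1493 at 69 h in toc1-1, and AT1G12080 (0.36, SE 0.06), AT2G46220 (0.32, SE 0.07) and MSRB5 (0.28, SE 0.07) were also rhythmic, with limma adjusted p of 2.23e-04, 0.00295 and 0.0136. MSRB5 had an untreated amplitude of 0.03.

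**Figure D4:**
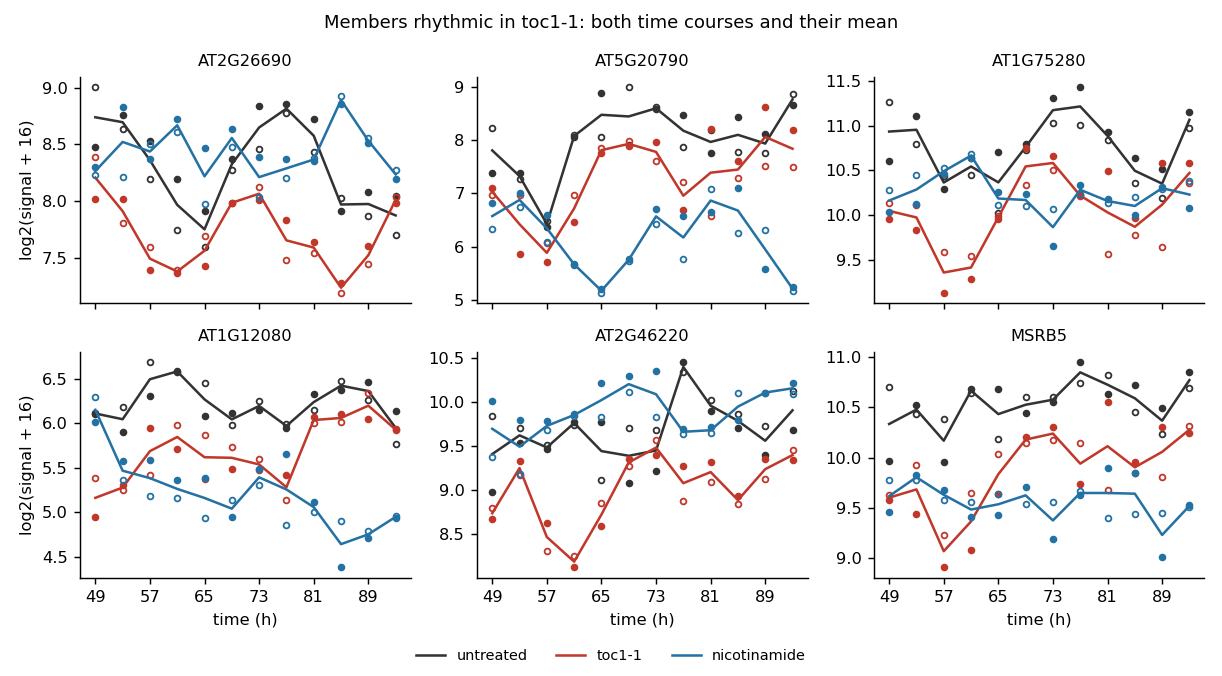
log2(signal + 16) against hours for 6 transcripts rhythmic in toc1-1. Points are the arrays of each course and lines the means of both. AT2G26690 reaches its low points at 61 and 85 h in toc1-1 and at 65 and 93 h in untreated plants.

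Under nicotinamide, 84 of the 212 (39.6%) were rhythmic, where 32.0% of all tested probe sets and 31.6% of the others that met the remaining criteria were. Of the 34 rhythmic in toc1-1, 17 were also rhythmic here. Peaks fell at 0 to 6 h for 44, at 6 to 12 h for 21, at 12 to 18 h for 9 and at 18 to 24 h for 10. Among gene-matched transcripts the smallest adjusted p were those of AT5G13140, with an amplitude of 0.44 (limma adjusted p = 5.33e-06), AT3G52360, with 0.43 (1.06e-05), and HAT2, with 0.41 (2.06e-05). Under nicotinamide HAT2 rose from 80.4 at 49 h to 162 at 69 h and from 63.0 at 77 h to 150 at 89 h. In untreated plants it peaked at 57 and 81 h, at 82.9 and 87.2. A 24 h cosine was used in all conditions, so amplitudes understate rhythms of other periods and peak times are averages over both cycles. The count in toc1-1 was 5 without the first and 6 without the second toc1-1 course, 58 without either nicotinamide course, and 17 when the spread was taken from the residuals of the cosine.

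The level of the transcripts could also change with time in continuous light, from the first cycle (49 to 69 h) to the second (73 to 93 h). In untreated plants 0 of the 212 passed the limma test in either direction, with 25 higher and 17 lower at an unadjusted p under 0.05. Over all tested probe sets 0.0147% were called higher and 0.022% lower. The smallest adjusted p was that of AT4G11290, whose mean signal was 80.4 ± 16.6 in the first and 58.6 ± 19.5 in the second cycle (SD, n = 12 arrays, log2 change -0.41, limma adjusted p = 0.0822).

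In toc1-1, 21 of the 212 rose and 4 fell from the first to the second cycle. That is 9.91% and 1.89%, where 3.18% of all tested probe sets rose and 2.52% fell. MSRB5 rose from 802 ± 227 to 1090.3 ± 209 (SD, n = 12 arrays each, log2 change 0.46, limma adjusted p = 0.00298). AT5G41400 rose from 88.6 ± 24.1 to 129 ± 17.8 (0.50, limma adjusted p = 0.00263). AT5G09570 rose from 32.4 ± 17.5 to 61.9 ± 18.2 (0.73, limma adjusted p = 0.0101). AT4G31330 (0.45) and AT2G46220 (0.44) rose as well. AT4G11290 fell from 48.9 ± 12.4 to 29.8 ± 8.66 (log2 change -0.50, limma adjusted p = 0.00159), and AT2G39130 (-0.39) and AT3G63460 (-0.25) fell too. The change in toc1-1 was also compared with the change in untreated plants directly. None of the 212 passed that limma test in either direction (11 higher and 2 lower at an unadjusted p under 0.05), and 0.0% of all tested probe sets did. MSRB5 rose by 0.21 in untreated plants, a difference of 0.25 between the genotypes with an SE of 0.14. The 25 calls in toc1-1 became 7 without the first and 1 without the second toc1-1 course, and 47 without either nicotinamide course.

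Under nicotinamide, 16 of the 212 rose and 14 fell between the cycles (7.55% and 6.6%), where 3.16% of all tested probe sets rose and 4.39% fell. AT3G62040 fell from 43.6 ± 21.1 to 19.0 ± 5.39 (SD, n = 12 arrays each, log2 change -0.71, limma adjusted p = 9.72e-05). AT5G48900 fell from 94.9 ± 23.2 to 55.3 ± 20.3 (-0.66, limma adjusted p = 8.32e-05). BZIP61 fell from 41.3 ± 11.2 to 24.7 ± 9.66 (-0.51, limma adjusted p = 5.76e-04), and AT4G00780 from 288 ± 51.1 to 194 ± 61.8 (-0.58, limma adjusted p = 0.00863). AT1G12080 (-0.40) fell as well. AT2G37220 rose by 0.32, AT1G56320 by 0.36, AT4G33666 by 0.38, AT4G38250 by 0.38 and AT5G13140 by 0.30. When the change was set against that in untreated plants, 1 transcript had a higher and 6 a lower change under nicotinamide (0.472% and 2.83%), where 0.535% and 0.491% of all tested probe sets did. BZIP61 stayed at 62.0 ± 18.2 and 60.4 ± 15.9 in the 2 cycles of untreated plants. AT4G00780 went from 305 ± 90.3 to 366 ± 61.6 there. The 30 calls became 10 to 15 without 1 course of untreated or toc1-1 plants, and the balance of rises and falls was lost: 4 rose and 11 fell without either untreated course, and 1 rose and 9 fell without either toc1-1 course. None rose and 14 fell without the first nicotinamide course, and 37 rose and 21 fell without the second. Without the 3 nicotinamide arrays whose title ends in 2, 2 rose and 10 fell. Without the nicotinamide arrays of 77 h in the first and 85 h in the second course, 1 rose and 10 fell. The 7 differences became 0 without any 1 course of untreated or toc1-1 plants, 2 higher and 11 lower without the first nicotinamide course, and 21 higher and 14 lower without the second, where the excess of lower changes turned. They became 1, a lower change, without either of those groups of arrays. They became 3 without the 3 arrays of 93 h of the first course.

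**Figure D5:**
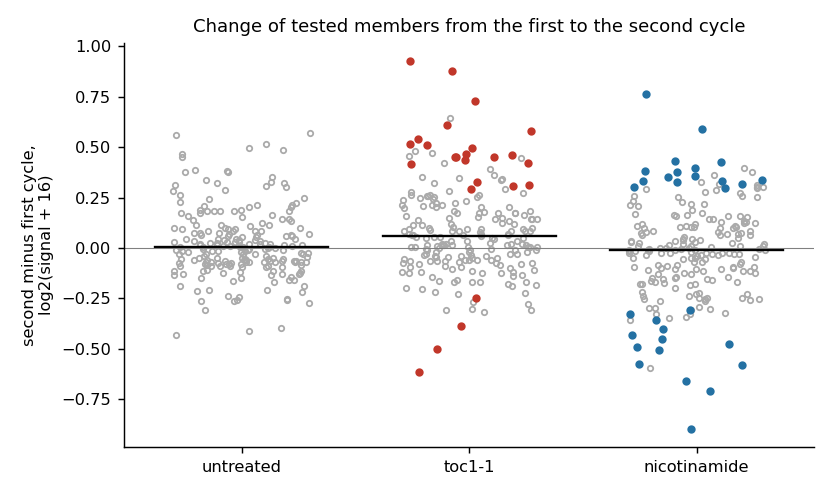
Second minus first cycle, log2(signal + 16), for the 212 tested transcripts in each condition. Filled points passed the limma test and bars are medians. None passed in untreated plants, while 25 did in toc1-1 and 30 under nicotinamide.

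Gene lists were counted over genes outside the 232. Genes were matched to most lists by symbol or name, so relatives given only by locus may be missing. The lists were chosen with earlier results of these data known, and the rule on levels sets which genes are outside, so the counts are descriptions. Over all tested probe sets, 22.1% were higher and 19.6% lower in toc1-1 than in untreated plants, and 30.9% higher and 48.4% lower under nicotinamide. Of 4 further GH9 endoglucanases tested, 3 were lower in toc1-1. These were GH9B13 (-0.72, SE 0.09, limma adjusted p = 1.32e-08), GH9C2 (-0.35) and GH9B8 (-0.24). GH9B13 lay outside the nicotinamide limit of the rule, at -2.07. In toc1-1 GH9B7 was at -0.12 with an adjusted p of 0.0638. Under nicotinamide all 4 were lower, from -1.19 to -2.22. All 4 jacalin lectins tested, carbohydrate-binding proteins, were lower in toc1-1, with differences of -0.39 for JAL34, -0.39 for JAL33, -0.35 for JAL22 and -0.20 for JAL23 and limma adjusted p from 7.38e-05 to 0.042. Under nicotinamide 2 of them were lower and 1, JAL22, was higher.

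Of 27 other UDP-glycosyltransferases, 2 were lower in toc1-1, 7 higher and 18 not called. UGT84A3 was at -0.46 and UGT76B1 at 0.65 (SE 0.06 and 0.08). Of 4 other methionine sulfoxide reductases, MSRB3 (-0.28) and MSRA5 (-0.26) were lower and 2 were not called. Of 8 other glutathione transferases, GSTU22 (-0.44) was lower and 7 were not called. Of 4 other bZIP factors, BZIP53 (0.48) and BZIP60 (0.32) were higher and 2 were not called. By that matching the remaining lists, like that of the jacalin lectins, hold none of the 232, but transcripts given only by locus may belong to these families. Of 6 glucosinolate genes, 4 were higher and 2 not called. Of 3 peroxidases matched by symbol or name, 1 was higher and 2 were not called. Peroxidases given only by locus may be missing, so these 3 do not stand for the family. All 4 root hair genes tested, which were listed by locus, were lower, from -2.67 for AT4G26010 to -1.41 for AT3G01190. Of 7 light-harvesting and photosystem genes, 1 was lower and 6 were not called. Cytochrome P450 genes gave 1 lower and 4 higher of 13, and cold and dehydration genes 2 lower and 3 higher of 7. Genes called higher only were 3 of 6 WRKY and pathogenesis-related, 2 of 4 jasmonate and defensin and 2 of 3 pectin-modifying genes. The same held for 1 of 3 plastid chaperonins and 1 of 2 sulfur genes. Called lower only were 1 of 5 flavonoid, 1 of 3 auxin-responsive and 1 of 2 clock genes.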

How the data were processed

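RNA from 72 samples was hybridised to Affymetrix ATH1 arrays, 1 array a sample. The deposited values are intensity signals per probe set on a linear scale, and the submitters' processing notes name MAS5 and GCOS; versions are not given in the sources used here. Tested on the values, each array's 2% trimmed mean was 100.01 to 100.02, so arrays had been scaled to a common level. Precision is limited by how many arrays there are.

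The members and lists were chosen with earlier results of these data known. Values were taken as log2(signal + 16). A fold on this scale understates the change of low signals. In limma 3.58.1 (R 4.3.3), the mean of each of 36 cells, a cell being 1 condition at 1 time, was estimated for the upper 60% of probe sets by mean signal (13647), with 36 residual and 6.74 prior degrees of freedom. P-values were adjusted by Benjamini-Hochberg over all tested probe sets at 0.05. Rhythm was a 24 h cosine contrast of the cell means, and cycle changes were the mean of 73 to 93 h minus that of 49 to 69 h. In data simulated for these contrasts on 13647 probe sets, effects of 0.3 were recovered in 65% (rhythm), 28% (cycle change) and 11% (difference of changes), and effects of 0.6 in 99%, 89% and 58%. Symbols come from the array annotation and RefSeq names. Transcripts named in the text are the 20 gene-matched ones with the lowest mean difference, the 10 with the highest untreated signal, those with a symbol, the 5 leading in each test and direction, and those at the rule's limit. Probe sets with no listed gene that are named, such as 259839_at, were singled out after their values were seen. Alternatives changed the pseudocount, the filter, the threshold, the scaling, the spread, the replicates and single arrays. Sequences were not used here.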

Additional observations from a re-analysis of the deposited data

Results flagged for a closer look

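For 7 transcripts the change from the first to the second cycle under nicotinamide differed from that in untreated plants by a test of the difference itself (limma, adjusted p under 0.05). The differences, nicotinamide change minus untreated change on the log2 scale, were -0.86 for AT4G00780 (adjusted p = 0.026), -0.84 for 259839_at (0.0196), -0.67 for 263549_at (0.0404), -0.63 for AT3G62040 (0.0347), -0.57 for AT5G48900 (0.0347) and -0.48 for BZIP61 (0.0435). The difference was 0.55 for AT2G37220 (limma, adjusted p = 0.0345), which had mean signals of 1704 and 1445 in the first and second cycle of untreated plants and of 1162 and 1449.7 under nicotinamide. The probe set 259839_at went from 142 ± 43.2 to 68.3 ± 21.8 under nicotinamide and from 164 ± 38.0 to 158 ± 42.3 in untreated plants (SD, n = 12 arrays each). None of these 7 passed the same kind of test between toc1-1 and untreated plants.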

How the results depend on the processing

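No single transcript's result reversed its direction under the alternatives run, but the split of counts into higher and lower did: the nicotinamide differences, 1 higher and 6 lower, became 21 and 14 without the second nicotinamide course. Of 1289 comparisons of a result with an alternative, 1100 counted as the same. For tested results this means that direction and side of the threshold were kept. Among toc1-1 minus untreated means, which have no test, 97 counted as the same, with a shift under the SD of the 2 course differences. Another 53 moved by more but kept their direction. With a pseudocount of 64 the rule gave 116 transcripts, 81 of them among the 232, and with a pseudocount of 1 it gave 291, 177 of them shared. With a pseudocount of 64, 1 changed between cycles in untreated plants, as 1 did with a linear slope. At an adjusted p under 0.01, 15 were rhythmic in toc1-1, 8 changed under nicotinamide, 9 in toc1-1, and 0 differed between nicotinamide and untreated. With the spread of the cosine residuals 17 were rhythmic in toc1-1. For that difference between nicotinamide and untreated (7 transcripts), the counts were 2 with no filter, 4 with the upper 40% of probe sets and 11 with a linear slope; the upper 40% gave 17 changes under nicotinamide. Without the 3 arrays whose title ends in 2 the nicotinamide changes and differences were 12 and 1, and without those of 77 and 85 h they were 11 and 1. Without the 3 arrays of 93 h of the first course, an alternative chosen after seeing the data, the differences were 3.

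With the replicate number as a block (replicate block), 47 changed under nicotinamide, 1 in untreated plants, and 11 differed. The deviations of same-numbered courses correlated at 0.522, 0.225 and 0.183 between conditions over 13647 probe sets. With 2 numbers, and no label that ties a number to a shared sowing, the pairing stays a hint from the data. Leaving out 1 course at a time gave 5 to 58 rhythmic in toc1-1 and 0 to 35 differing. Changes numbered 0 to 5 in untreated, 10 to 58 under nicotinamide and 1 to 47 in toc1-1. Without 1 untreated or toc1-1 course, 36 to 47 genes of the lists were called in toc1-1 (56 with all). That count, unlike those given above for the lists, includes list genes among the 232, which the rule selected on this contrast. The cause of these changes was not tested. Low signals limit the result: 20 of the 232 did not pass the filter.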
